A study of Mus musculus with 1479 samples.

Results

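The Hox genes of the mouse bladder mesenchyme were examined in 1479 cells that were sorted from dissociated bladders and sequenced with Smart-seq2, a plate-based method that reads whole transcripts of single cells. The members were the genes whose symbol is Hox, a locus letter (a to d) and a paralogue number. They made up 39 of the 46517 gene rows, namely 11 genes of the HoxA locus on chromosome 6, 10 of HoxB on chromosome 11, 9 of HoxC on chromosome 15 and 9 of HoxD on chromosome 2 (GRCm38). Antisense and host transcripts of the loci were not members.

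The animals were adult males of 10 to 20 weeks. The cells came from the 4 reporter lines Acta2GFP, Cspg4dsRED, PdgfraGFP and PdgfrbGFP, and from C57BL6 mice, on 6 plates. In the reporter lines a fluorescent protein is made under the regulatory sequence of the named gene, so that each line samples the cells that use it, while the C57BL6 cells, from mice without a transgene, were sorted with antibodies, and cells carrying the endothelial protein CD31 were gated out. The 11 clusters are those given in the sample labels. Cluster 10 holds mural cells, that is pericytes and vascular smooth muscle cells, cluster 5 (76 cells) holds the fibroblasts that lie beneath the urothelium, and the other 9 clusters (1278 cells) were treated as fibroblasts, although the study left cluster 4 without a defined type. Acta2GFP gave no cell of cluster 5 and PdgfraGFP no cell of cluster 10. As the clusters had been drawn from the same expression values, the p-values below measure how far a difference repeated over the mouse lines. The labels name no animal, so the line, which may pool animals and also differs in sort, served as the replicate.

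Hox genes encode homeodomain transcription factors that stand in 4 loci, and genes at the same place in different loci are paralogues that share a number. Along the body axis they are used in the order in which they stand in the locus, low numbers towards the head and high numbers towards the tail, and adult connective tissue cells keep much of the code of the place where they arose. Groups 1 to 3 are called anterior here, groups 4 to 8 central and groups 9 to 13 posterior. Posterior HoxA and HoxD genes are known for their roles in the limb and in the urogenital tract.

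The study's labels fitted the markers. The summed level of 9 mural markers was 10595 reads per 500000 endogenous reads in cluster 10 (range over 4 lines, 8133 to 12820) and 116.1 in the fibroblast clusters other than 5. The summed level of 6 sub-epithelial markers was 2573 in cluster 5 and 133.4 in those other fibroblast clusters, and 9 fibroblast markers summed to 907 in cluster 10 against 14466. Depth ran from 50276 to 1446059 reads per cell with a median of 214893, and the cluster medians lay between 110330 (cluster 4) and 306896 (cluster 6). No pair of cells had identical counts.

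Promoter sequences are shown for 3 members picked after their values were seen and not called by edgeR in the comparison of cluster 5. Hoxa11 was the member found in the most cells of that cluster, and Hoxd11 and Hoxd13 were nearly unread there. Each sequence is the 250 bases before the annotated start, 5′ to 3′ on the strand of the gene (RefSeq, GRCm38.p6). Hoxa11 is from chr6:52245811-52246060 on the minus strand, Hoxd11 from chr2:74679308-74679557 on the plus strand and Hoxd13 from chr2:74667975-74668224 on the plus strand. Capitals mark matches on either strand to TTTATG (a core bound by posterior Hox proteins), TAATTA (a palindrome of homeodomain proteins), TATAAA (the TATA box) or TGATNNAT (a site shared by Pbx and Hox proteins).
Hoxa11: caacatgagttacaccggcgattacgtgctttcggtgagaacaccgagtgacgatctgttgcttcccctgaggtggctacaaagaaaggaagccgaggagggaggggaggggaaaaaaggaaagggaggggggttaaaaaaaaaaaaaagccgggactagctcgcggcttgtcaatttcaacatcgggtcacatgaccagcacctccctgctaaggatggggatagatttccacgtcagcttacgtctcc
Hoxd11: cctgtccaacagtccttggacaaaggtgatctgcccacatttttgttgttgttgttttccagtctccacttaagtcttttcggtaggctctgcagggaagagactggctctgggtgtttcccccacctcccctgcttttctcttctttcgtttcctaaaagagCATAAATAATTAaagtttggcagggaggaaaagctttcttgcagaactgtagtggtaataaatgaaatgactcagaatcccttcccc
Hoxd13: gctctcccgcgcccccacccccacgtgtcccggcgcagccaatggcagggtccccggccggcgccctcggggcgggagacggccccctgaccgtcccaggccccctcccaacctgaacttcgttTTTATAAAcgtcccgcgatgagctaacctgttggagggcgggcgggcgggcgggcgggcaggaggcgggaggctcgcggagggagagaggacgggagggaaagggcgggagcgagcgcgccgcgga

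The Hoxd11 window held TTTATG (on the other strand) and TAATTA, which stand next to each other without a shared base, the Hoxd13 window held TATAAA on both strands in overlapping places, and the Hoxa11 window held none of these letters. Of 32851 windows of the same length over the genome, 10.8% held TTTATG, 4.84% TAATTA, 12.4% TATAAA and 7.68% TGATNNAT. Among the 24 windows of the 22 members that matched the table by symbol, 5 held TTTATG, 2 TAATTA, 4 TATAAA and 4 TGATNNAT. The windows of Hoxd8, Hoxd9 and Hoxd10, also nearly unread in cluster 5, held none of these letters. A window of Hoxa10, which was high in cluster 5, held TATAAA, and its other window held none. The contrast between the windows shown therefore rests on which members were picked. All of these are descriptions of letters and not of binding.

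Of the 39 members, 36 had at least 1 read and Hoxc12, Hoxc13 and Hoxd1 had none. Together the members took 84210 reads, 0.0221% of the endogenous reads. After each cell had been thinned to 50000 endogenous reads, which left 1473 cells, 75.4% of the cells had a read of at least 1 member (95% Clopper-Pearson interval 73.1 to 77.5). These intervals cover counting error alone, and reads without molecular identifiers are not independent molecules. Fewer than 10% of the thinned cells of every cluster had a read for 31 members. The 8 members above this share in at least 1 cluster were Hoxa7, Hoxa10, Hoxa11, Hoxa13, Hoxc9, Hoxd8, Hoxd10 and Hoxd11, all of them central or posterior.

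**Figure D1:**
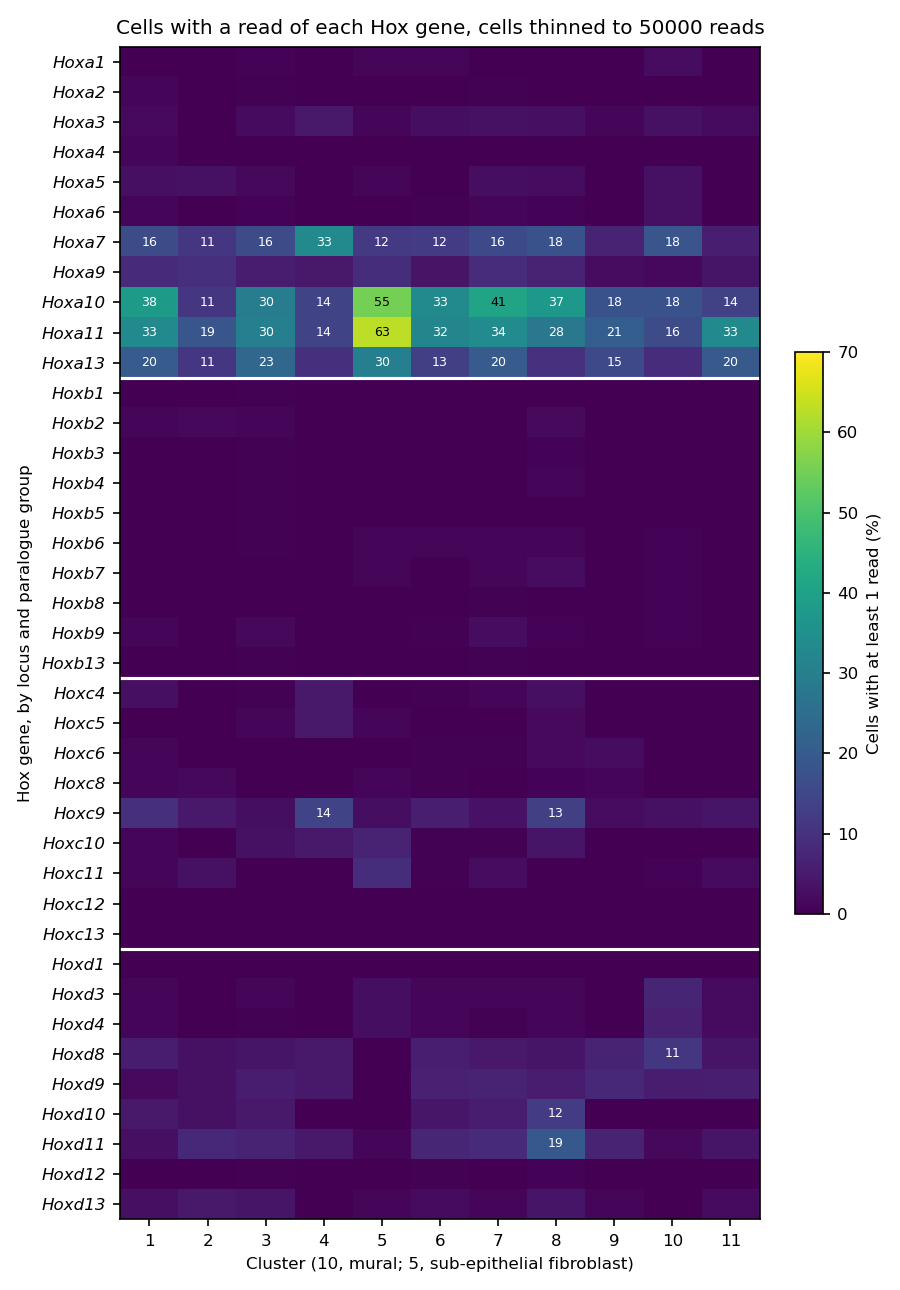
Percent of thinned cells (50000 reads each) with at least 1 read of each of the 39 Hox genes (rows, by locus and paralogue number, white lines between loci) in clusters 1 to 11 (columns). Shares of 10% or more are written in the cells, and the highest, 63.2%, is Hoxa11 in cluster 5.

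Posterior HoxA genes carried most of the Hox signal. Levels were compared between genes as reads per kilobase of exon per 1000000 endogenous reads. Summed over members, HoxA reached 55.3 ± 6.18 (SD over 5 lines) in the fibroblast clusters, 79.6% of the Hox total. HoxD reached 9.84 ± 2.14, HoxC 3.55 ± 1.26 and HoxB 0.803 ± 0.579. Without members whose exons overlap other genes the HoxA sum was 27.04 and the HoxD sum 5.93. The 16 posterior members held 84.5% of the total, the 15 central members 14.1% and the 8 anterior members 1.35%.

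In the fibroblast clusters Hoxa11, a regulator of limb and reproductive tract patterning, had the highest level per length, 19.9 ± 4.96 (SD, n = 5 lines). Hoxa10, its neighbour, known for its part in uterine identity, followed at 14.3 ± 3.67 and Hoxa13, needed for the digits and the terminal urogenital tract, at 11.8 ± 5.19. Hoxa7 stood at 6.25 ± 1.71 and Hoxd9 at 3.25 ± 2.04, and the next 6, Hoxd10, Hoxc9, Hoxd11, Hoxa9, Hoxd8 and Hoxd13, lay between 1.26 and 1.80. Each level differed from the next in this order by less than the sum of their SDs over lines.

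The signal of low members rested on few cells. For Hoxa10 the 10 cells with the most reads held 12.3% of all its reads, and for Hoxa11 13.8%, whereas for Hoxd9 they held 45.2%, for Hoxd8 49.1% and for Hoxd13 64.6%. All 10 HoxB members stayed at or under 2.20% of thinned cells in every cluster. In the fibroblast clusters other than 5 the median share over 6 immune markers was 1.53%, over 9 urothelial markers 2.20% and over 8 endothelial markers 8.22%, so the HoxB shares could not be told from background. Over all fibroblast clusters the shares of Hoxd8 (4.45%), Hoxd10 (4.90%), Hoxd9 (5.34%), Hoxc9 (5.49%) and Hoxd11 (8.16%) lay above the immune and urothelial medians but not above the endothelial one, and that of Hoxd13 was 2.67%.

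**Figure D2:**
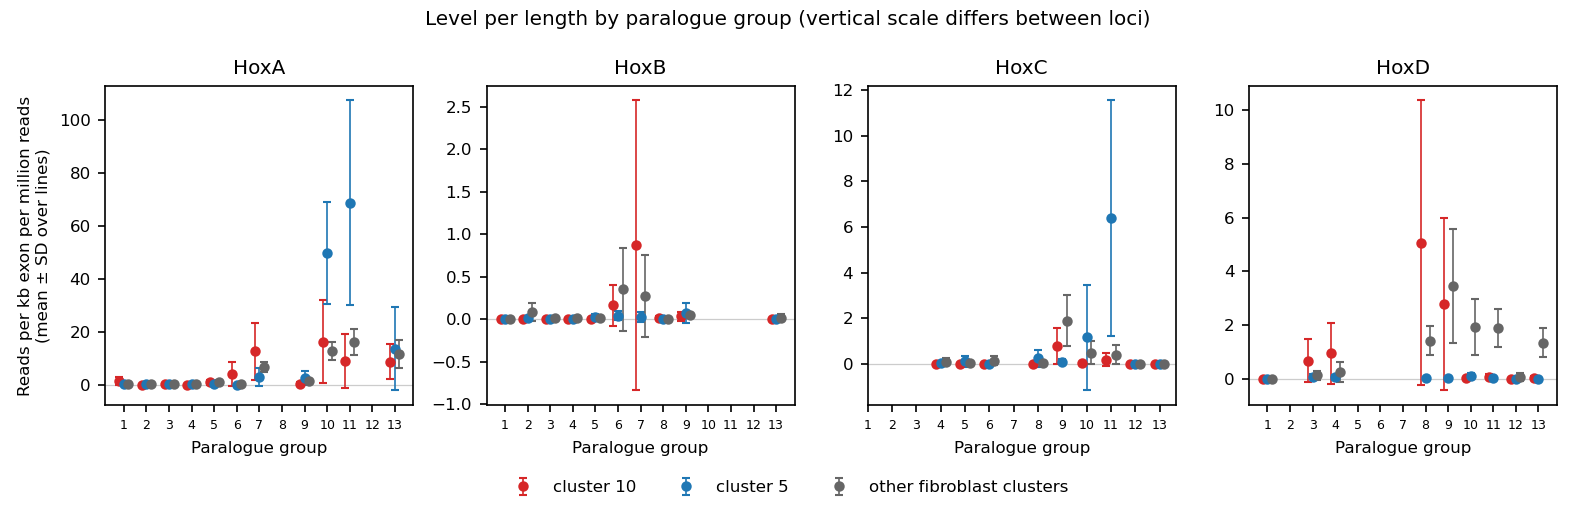
Mean level per length (reads per kilobase of exon per 1000000 endogenous reads, ± SD over lines) of each Hox gene by paralogue number, for cluster 10, cluster 5 and the other fibroblast clusters. The vertical scale differs between loci, and the high points of cluster 5 are Hoxa10 and Hoxa11.

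Exons of several members overlap those of other genes, and the strand setting of the counting is not given in the sources used here. Hoxa11 shares 800 of its exon bases (34.98%) with the antisense transcript Hoxa11os, which had 38757 reads against 21164 for Hoxa11. Hoxa7 shares 20.4% of its exon bases with Hoxaas3, Hoxd3 shares 62.8% with other genes of its locus and Hoxd4 52.3%. Hoxd10 and Hoxd11 share 5.73% and 10.8% with the transcript Gm28309. Hoxa10, Hoxa13, Hoxc9, Hoxd8, Hoxd9 and Hoxd13 share none.

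Cluster 5 was compared with the other fibroblast clusters to ask whether fibroblasts beneath the urothelium differ in Hox use. Counts were summed per line and class and fitted with edgeR (quasi-likelihood, mouse line as a blocking term) over 4 lines (15, 3, 22 and 36 cells of cluster 5 from C57BL6, Cspg4dsRED, PdgfraGFP and PdgfrbGFP). Calls needed a log2 fold change of at least 2 in size and an adjusted p (Benjamini-Hochberg) below 0.05. Of the 17 members that passed the filter on low counts, 0 were called by edgeR, 9 had an unadjusted p under 0.05 (13.2% of all genes did), and DESeq2 called 7 (2 higher, 5 lower). Over all 16145 genes tested, 0.762% were called by edgeR and 8.68% by DESeq2. The members' median log2 fold change was -2.87, and that of all genes -0.77. Members with almost no read in cluster 5 passed the filter only through the other fibroblasts, where they are high, so these counts and the median describe the members that passed and support no direction.

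The Hoxa11 level in cluster 5 was 83.1 reads per 500000 endogenous reads for C57BL6, 18.6 for Cspg4dsRED, 88.6 for PdgfraGFP and 124.7 in PdgfrbGFP. In the other fibroblast clusters it was 18.3, 14.95, 11.9 and 26.2 in the same lines and 21.03 in Acta2GFP. Cluster 5 was higher in 4 of 4 lines, but the value from the 3 Cspg4dsRED cells lay within the range of the other clusters. The log2 fold change was 2.09 ± 0.72 (SE) with an edgeR adjusted p of 0.225, and without Cspg4dsRED it was 2.58 with an adjusted p of 0.0219, past the threshold. Over the 15 fits tried the adjusted p ran from 0.000737 to 0.591. After thinning, 63.2% of cluster 5 cells had a Hoxa11 read (51.3 to 73.9) against 29.7% (27.2 to 32.3) of the other fibroblasts.

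Hoxa10 followed the same order. Its level in cluster 5 was 81.7 for C57BL6, 109.2 for Cspg4dsRED, 37.1 for PdgfraGFP and 96.9 for PdgfrbGFP, and in the other fibroblast clusters it lay between 13.9 and 26.3 in the 5 lines. The ranges did not overlap. The log2 fold change was 1.67 ± 0.66 with an edgeR adjusted p of 0.291 (0.0357 to 0.767 over the fits), and 55.3% of thinned cluster 5 cells had a read against 31.3%. The antisense transcript Hoxa11os, whose exons overlap Hoxa11, had levels of 79.1 to 132.8 in cluster 5 and 27.5 to 59.3 in the other fibroblast clusters, with a log2 fold change of 1.19 ± 0.50 and an edgeR adjusted p of 0.318. In the fibroblast clusters 80.3% of cells with a Hoxa11 read also had a Hoxa11os read, against 39.9% of those without. As the strand setting of the counting is unknown, reads from the exon bases that the pair shares cannot be assigned to either gene.

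Levels of Hoxa13 did not share this order. In cluster 5 they were 4.68, 9.76, 6.58 and 45.6 in C57BL6, Cspg4dsRED, PdgfraGFP and PdgfrbGFP, against 7.35 to 23.6 in the other fibroblast clusters, and the groups overlapped. The log2 fold change was -0.60 ± 1.18 with an edgeR adjusted p of 0.909, and its sign turned with the median gene set to 0. The share of thinned cells with a Hoxa13 read was 30.3% in cluster 5 (20.2 to 41.9) and 17.5% (15.4 to 19.7) in the other fibroblast clusters, higher in 3 of 4 lines, while the level was higher in 1 of 4. Hoxa7 had a log2 fold change of -2.87 ± 1.73 (edgeR adjusted p = 0.579), with cluster 5 lower in 4 of 4 lines.

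Genes of the HoxD locus, whose posterior members pattern the distal limb and the urogenital region, were nearly unread in cluster 5. Its 76 cells held 30 reads of the 9 HoxD members, and the 1278 cells of the other fibroblast clusters 11068. Summed per length, the locus reached 0.194 for C57BL6, 0.00 for Cspg4dsRED, 0.234 for PdgfraGFP and 0.784 for PdgfrbGFP in cluster 5, and 6.39 to 12.6 in the other fibroblast clusters of the 5 lines. The groups did not overlap. After thinning, 4 of 76 cells (5.26%, interval 1.45 to 12.9) had a read of any HoxD member, against 21.7% of 1272 cells (interval 19.5 to 24.1).

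The stretch from Hoxd8 to Hoxd13, which joins central and posterior members and leaves out Hoxd3 and Hoxd4, was drawn after the values were seen. The 76 cells of cluster 5 held 16 reads of Hoxd8 to Hoxd13, while the 1278 cells of the other fibroblast clusters held 10767. Summed per length, these genes reached 0.00 for both C57BL6 and Cspg4dsRED, 0.234 for PdgfraGFP and 0.453 for PdgfrbGFP in cluster 5, and 6.19 to 12.4 in the other fibroblast clusters of the 5 lines. The groups did not overlap. After thinning, 2 of 76 cells (2.63%, interval 0.32 to 9.18) had a read of any of them, against 21.1% of 1272 cells (interval 18.9 to 23.4). The median depth of cluster 5, 261653 reads per cell, was above the median of all cells.

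Hoxd9 had 2 reads in cluster 5, both in PdgfrbGFP, and 2969 in the other fibroblasts of the same lines, a ratio of 0.0105 per endogenous read (exact 95% interval 0.00127 to 0.0380, counting error alone). Its level was 1.45 to 6.99 in the other fibroblast clusters and at most 0.0609 in cluster 5, with a log2 fold change of -7.19 ± 1.81 and an edgeR adjusted p of 0.127. Hoxd8 had 3 reads in cluster 5 (ratio 0.0304, interval 0.00626 to 0.0890) and Hoxd13 had 1 (ratio 0.0143, interval 0.000362 to 0.0799). Their log2 fold changes were -5.87 ± 1.70 (edgeR adjusted p = 0.176) and -6.57 ± 1.80 (edgeR adjusted p = 0.157). Fitted fold changes of genes with so few reads depend on the prior count.

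Hoxd10 had 4 reads in cluster 5 and Hoxd11 had 6, with log2 fold changes of -4.77 ± 1.68 (edgeR adjusted p = 0.232) and -6.13 ± 1.74 (edgeR adjusted p = 0.169). Each of Hoxd8, Hoxd9, Hoxd10, Hoxd11 and Hoxd13 was lower in cluster 5 in 4 of 4 lines and in 5 of 5 plate and line units. How many of all genes did the same was not counted, and the median log2 fold change over all genes was -0.77. DESeq2 called Hoxd8, Hoxd9, Hoxd11 and Hoxd13 lower, with adjusted p of 0.00863, 0.000107, 0.00187 and 0.0152. With so few reads in cluster 5 these members passed the filter only through the other fibroblasts, so those that were tested had to differ, and the calls and directions are a description and no support. Hoxd9 and Hoxd13 fell outside the 10% rule and were chosen after their values were seen, as were Hoxa3, Hoxa9, Hoxc10 and Hoxc11. No thinned cell of cluster 5 had a read of Hoxd8, Hoxd9 or Hoxd10. For each, 0 of 76 cells allows a share of cells with a read of up to 3.95% by a limit of 3 counts, and of up to 4.74% by the exact interval.

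In the HoxC locus, Hoxc9 was read 9 times in cluster 5 (level 0.122 ± 0.149, n = 4 lines) and its level was 2.30 ± 1.34 in the other fibroblast clusters, with a log2 fold change of -4.27 ± 1.53 (edgeR adjusted p = 0.237). Hoxc11 went the other way. Its level was 8.66 for C57BL6, 0.00 for Cspg4dsRED, 12.2 for PdgfraGFP and 5.01 for PdgfrbGFP in cluster 5 and at most 1.09 elsewhere, with a log2 fold change of 4.66 ± 2.18 and an edgeR adjusted p of 0.398. DESeq2 called Hoxc9, which also passed the filter through the other fibroblasts, lower (adjusted p = 0.0343) and Hoxc11 and Hoxa11 higher (0.0107 and 0.0192). Hoxc11 had 16, 8, 0 and 230 reads in the other fibroblasts of C57BL6, Cspg4dsRED, PdgfraGFP and PdgfrbGFP. Its call can rest on the filter in the same way, through cluster 5, and is a description. Only 10 cells of cluster 5 had a Hoxc11 read. Of the anterior members, Hoxa3 had 4 reads in cluster 5 and a log2 fold change of -4.22 ± 1.73 (edgeR adjusted p = 0.310).

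The summed level of 9 urothelial markers in cluster 5 was 33.1 (0.00 to 128.4 over 4 lines), and in the other fibroblast clusters 14.7 (1.05 to 53.02 over 5 lines), with all 9 genes read in each class. Its part in these results was not tested.

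**Figure D3:**
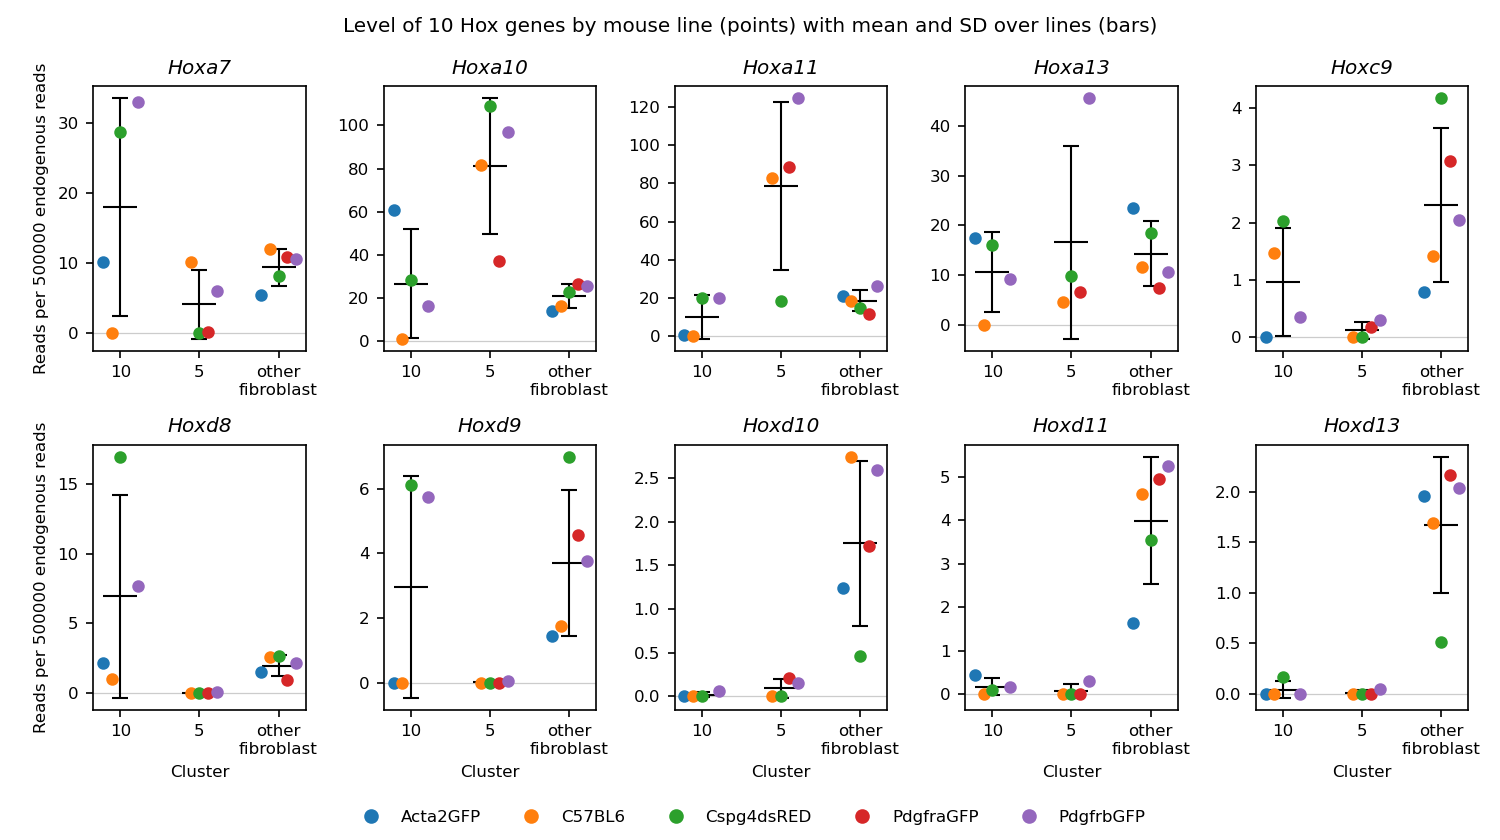
Level (reads per 500000 endogenous reads) of 10 Hox genes in cluster 10, cluster 5 and the other fibroblast clusters, 1 point for each mouse line with at least 3 cells, bars for the mean and SD over lines. Hoxa10 and Hoxa11 stand highest in cluster 5, and the 5 HoxD genes lie at or near 0 there.

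**Figure D4:**
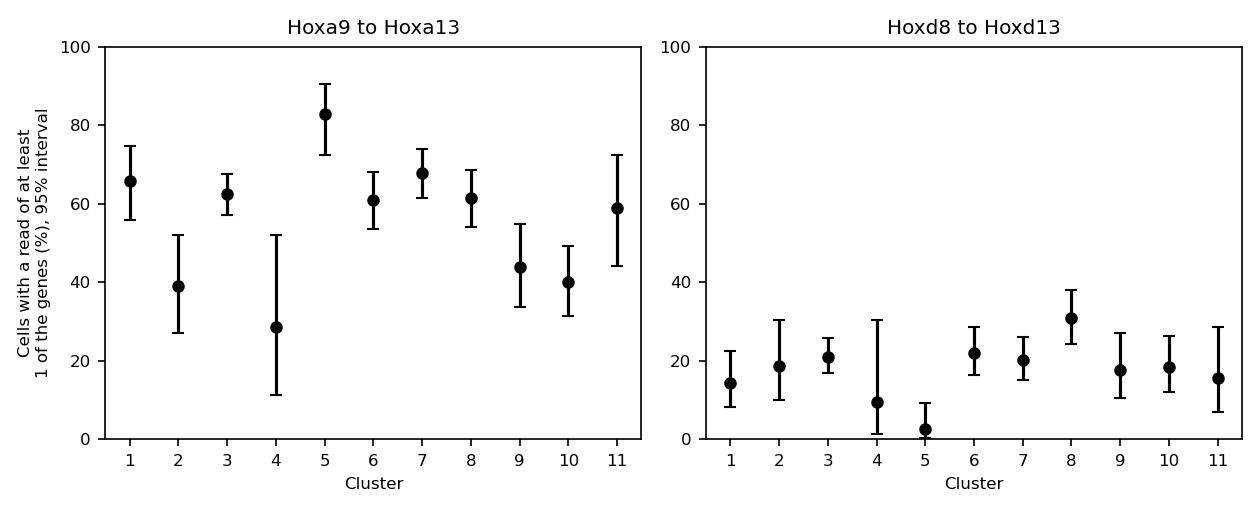
Percent of thinned cells with a read of at least 1 gene from Hoxa9 to Hoxa13 (left) and from Hoxd8 to Hoxd13 (right, a stretch drawn after the values were seen) by cluster, with exact 95% intervals. Cluster 5 has the highest share on the left, 82.9%, and the lowest on the right, 2.63%.

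Mural cluster 10 was compared with all fibroblast clusters to ask whether the 2 kinds of cell carry a different Hox code. The fit held 12 cells of cluster 10 from Acta2GFP, 3 from C57BL6, 65 from Cspg4dsRED and 45 from PdgfrbGFP. Of the 21 members that passed the filter, 0 were called by edgeR, 4 had an unadjusted p under 0.05 (22.1% of all genes did), and DESeq2 called 2, both lower. Over all 16092 genes, 6.20% were called by edgeR and 18.6% by DESeq2. The median log2 fold change was -1.05 over the members and -0.93 over all genes. The posterior members held 59.03% of the Hox total per length in cluster 10 and the central members 37.7%. These shares carry no spread. The total was 62.2 in Acta2GFP, 2.55 in C57BL6, 107.1 in Cspg4dsRED and 86.1 in PdgfrbGFP. Of the central members, Hoxa7 stood at 12.5 ± 10.8 (SD, n = 4 lines) and Hoxd8 at 5.06 ± 5.31.

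Hoxd11 was read 5 times in cluster 10. Its level was 0.453 in Acta2GFP, 0.00 in C57BL6, 0.0960 in Cspg4dsRED and 0.164 in PdgfrbGFP, against 1.63 to 5.00 in the fibroblast clusters of the 5 lines. The log2 fold change was -4.89 ± 1.64 with an edgeR adjusted p of 0.0751, and DESeq2 called it lower (adjusted p = 0.00503). Hoxd10 was read 2 times (ratio 0.0206, interval 0.00249 to 0.0745), with a log2 fold change of -5.32 ± 1.79 (edgeR adjusted p = 0.0764). Hoxd13 had 4 reads and a log2 fold change of -4.93 ± 1.89 (edgeR adjusted p = 0.117). Each of the 3 was lower in cluster 10 in 4 of 4 lines, and no group overlapped. How many of all genes did the same was not counted, and the median log2 fold change over all genes was -0.93. With counts summed per plate and line, edgeR called these 3 HoxD members lower, with adjusted p of 0.0138 for Hoxd11, 0.00774 for Hoxd10 and 0.0245 for Hoxd13. There the plates of a line count as separate replicates, though they may share animals, and 15.9% of all genes were called. These members passed the filter on low counts only through the fibroblasts, so their calls too are a description. Hoxc10, with 2 reads (ratio 0.0450, interval 0.00544 to 0.163), had a log2 fold change of -4.05 ± 1.82 (edgeR adjusted p = 0.196).

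Hoxd8 and Hoxd9, at the other end of the same stretch, were read in cluster 10. The Hoxd8 level was 2.14 in Acta2GFP, 1.00 in C57BL6, 16.96 in Cspg4dsRED and 7.67 in PdgfrbGFP, against 0.793 to 2.61 in the fibroblast clusters, and the groups overlapped. Its log2 fold change was 1.42 ± 1.44 (edgeR adjusted p = 0.657), and 11.2% of thinned mural cells had a read against 4.45% of fibroblasts. Hoxd9 reached 6.11 in Cspg4dsRED and 5.76 in PdgfrbGFP and was unread in the mural cells of Acta2GFP and C57BL6, with a log2 fold change of -1.49 ± 1.69 (edgeR adjusted p = 0.706).

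Levels of Hoxa7, Hoxa10, Hoxa11 and Hoxa13 overlapped between mural cells and fibroblasts. The Hoxa10 level in cluster 10 was 60.9 in Acta2GFP, 1.00 in C57BL6, 28.2 in Cspg4dsRED and 16.3 in PdgfrbGFP, against 13.9 to 28.8 in the fibroblast clusters. The log2 fold change was -0.46 ± 1.33 (edgeR adjusted p = 0.902). Leaving out C57BL6 turned its sign, as did setting the median gene to 0. The share of thinned mural cells with a Hoxa10 read was 41.7%, 0%, 10.8% and 22.2% in the same lines. In their fibroblasts it was 21.4%, 26.2%, 17.8% and 41.2%. The Hoxa10 level was lower in cluster 10 in 6 of 7 plate and line units. Hoxa7 had levels of 10.1, 0.00, 28.8 and 33.02 in the same lines against 5.41 to 11.9 in fibroblasts, with a log2 fold change of 0.34 ± 1.58 (edgeR adjusted p = 0.942). Its sign turned without Cspg4dsRED and without PdgfrbGFP.

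Hoxa11 had levels of 0.437, 0.00, 20.1 and 20.1 in the mural cells of Acta2GFP, C57BL6, Cspg4dsRED and PdgfrbGFP, against 15.03 to 30.8 in fibroblasts. Its log2 fold change was -2.66 ± 1.86 (edgeR adjusted p = 0.464), and 16% of thinned mural cells had a read against 31.6% of fibroblasts. Hoxa13 had a log2 fold change of -1.05 ± 1.30 (edgeR adjusted p = 0.736) and Hoxc9 of -1.81 ± 1.44 (edgeR adjusted p = 0.538). The share of thinned mural cells with a Hoxa13 read was 16.7%, 0%, 6.15% and 11.1% in the same 4 lines. In their fibroblasts it was 24.8%, 13.9%, 14.1% and 20.9%. The Hoxa13 level was lower in cluster 10 in 4 of 4 lines. Hoxa9 was read in 2 mural cells, both of PdgfrbGFP, with a log2 fold change of -4.42 ± 2.13 (edgeR adjusted p = 0.230), and DESeq2 called it lower (adjusted p = 0.03997), again for a member with no read in the other 3 lines of cluster 10. The summed level of 8 endothelial markers was 86.3 in cluster 10 (12.1 to 231.1 over 4 lines) and 51.2 in the fibroblast clusters other than 5 (35.9 to 59.4), with all 8 genes read, and its part was not tested.

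**Figure D5:**
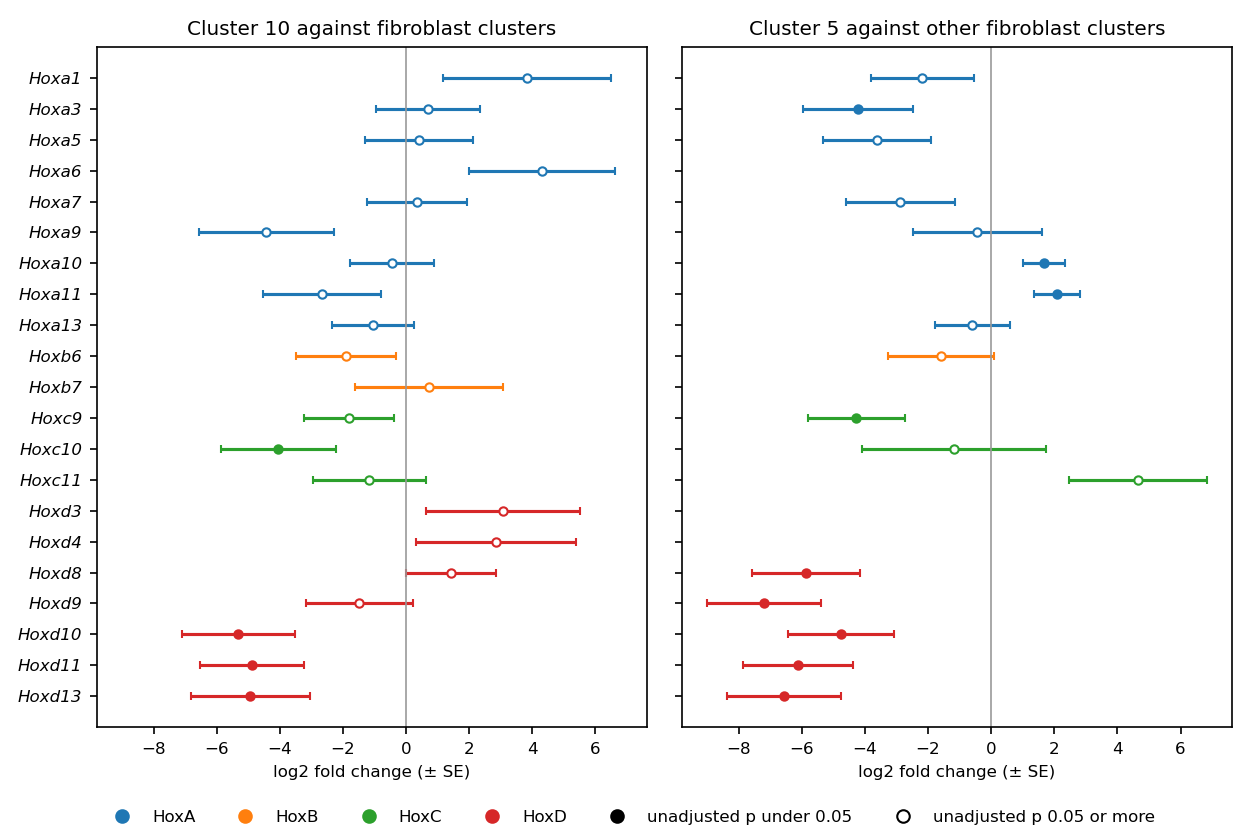
Log2 fold change (± SE, edgeR) of the Hox genes that passed the filter on low counts, for cluster 10 against the fibroblast clusters and cluster 5 against the other fibroblast clusters. Filled points have an unadjusted p under 0.05, and none had an adjusted p under 0.05.

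Each of the 9 remaining fibroblast clusters was compared with the others of that group, with a fold limit of 1 on the log2 scale. By edgeR, 0 members were called in any of the 9 comparisons, with 4, 4, 2, 0, 5, 3, 2, 0 and 3 members at an unadjusted p under 0.05 in clusters 1, 2, 3, 4, 6, 7, 8, 9 and 11. The members tested numbered 21, 16, 20, 12, 21, 20, 20, 12 and 17, and 9.26%, 23.3%, 6.11%, 3.75%, 9.01%, 10.2%, 8.92%, 1.29% and 5.35% of all genes had such a p. The shares of all genes called were 0.0433%, 0.00647%, 0.00608%, 0.746%, 0.0246%, 0.407%, 0.0183%, 0.0454% and 0.0209% in that order. DESeq2 called Hoxd9 lower in cluster 2, Hoxd11 lower in cluster 6, Hoxd9 and Hoxd13 lower in cluster 7 and Hoxd10 higher in cluster 8, and of all genes it called 14.1%, 2.90%, 4.90% and 4.78% in these 4 clusters. The lower calls, with log2 fold changes of -3.80, -4.27, -4.03 and -3.98 in that order, are of members with few reads. They can rest on the filter, through the remaining clusters, and are a description.

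Cluster 8 had the highest shares of cells with a Hoxd10 read, 12.1%, and a Hoxd11 read, 19.2% (interval 13.8 to 25.7), and 30.8% of its cells had a read of any gene from Hoxd8 to Hoxd13. Cluster 4, with 23 cells from 3 lines, of which 21 remained after thinning, had the highest share for Hoxa7, 33.3% (interval 14.6 to 56.97), and for Hoxc9, 14.3%. The shares of all 11 clusters for Hoxa9 to Hoxa13 ran from 28.6% in cluster 4 to 82.9% in cluster 5.

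Reads of the members were at most weakly correlated over cells, with 1 pair above the rest. Over 28 pairs of the 8 members, within the 5 lines and 1348 thinned fibroblasts, the median Spearman correlation over cells was 0.0196 for 9 pairs of the same locus, 0.00738 for 17 unrelated pairs and -0.00370 for 2 pairs of the same paralogue group. The points share their cell's depth, which thinning had set equal. The highest was Hoxd10 with Hoxd11 (0.317, 0.213 to 0.424 over the lines), neighbours that both overlap Gm28309. Of cells with a Hoxd10 read, 54.5% had a Hoxd11 read, against 5.77% of the others. In cluster 5, 55.3% of thinned cells had reads of 2 or more of Hoxa9, Hoxa10, Hoxa11 and Hoxa13, against 20.2% in the other fibroblast clusters. The shares of single genes were higher there too (Hoxa11 63.2%, Hoxa10 55.3%, Hoxa13 30.3%). Joint use beyond these shares was not tested.

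Hox proteins bind DNA with TALE cofactors such as Pbx and Meis, and their loci are kept on or off by trithorax and polycomb proteins. Retinoic acid receptors and Cdx proteins act upstream of them. Of a list of these cofactors and regulators, with H3K27 demethylases and Evx1 and Evx2, the homeobox genes beside the HoxA and HoxD loci, 33 were tested in each main comparison and 0 were called by edgeR in either, where it called 6.20% of all genes in cluster 10 and 0.762% in cluster 5. Their median log2 fold change was -1.41 in cluster 10 and -0.86 in cluster 5, beside -0.93 and -0.77 over all genes. DESeq2 called 7 of the 33 in cluster 10 and 1 in cluster 5, all lower, where it called 18.6% and 8.68% of all genes. Rarg, a retinoic acid receptor, had the highest level per length of the list in the fibroblast clusters, 26.4 ± 7.17 (SD, n = 5 lines), and in cluster 5, 33.2 ± 26.5 (n = 4). In cluster 10 it was Cbx7, a polycomb protein, at 21.4 ± 9.35 (n = 4).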

How the data were processed

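Single bladder cells were sequenced with Smart-seq2 in 50-bp single reads. Per the study's methods the authors aligned them to GRCm38 (mm10) with TopHat2 and counted reads per gene with featureCounts, and they removed cells judged to be contaminated. The annotation release and the strand setting are not given in the sources used here. The deposited values are raw counts per gene and cell, and 92 spike-in rows were left out of library sizes.

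Symbols, lengths and overlaps came from GENCODE M21 (GRCm38). The members and lists were chosen with earlier results of these data known. Members with their own values had a read in at least 10% of thinned cells of a cluster or were called; others named were chosen after seeing their values. Counts were summed per mouse line and class (at least 3 cells in each) and tested with edgeR 4.0.16 in R 4.3.3 (TMM, filterByExpr on the design, quasi-likelihood, Benjamini-Hochberg over all genes), with DESeq2 1.42.0 and limma 3.58.1 as alternatives. The standard error was derived from the F statistic. The line entered as a block, since classes of a line share the mouse line and the sort; deviations of the same line correlated at 0.0624 to 0.194. Levels are means over lines. Shares used cells thinned to 50000 endogenous reads, leaving out 6 cells. No doublet caller was run. The fitting was tested on simulated data. Other scalings, filters and lines left out were tried.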

Additional observations from a re-analysis of the deposited data

Results flagged for a closer look

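Levels of the 8 members were examined for a mouse line far from the others in 24 groups of 4 or 5 lines, and chance alone flags about 1 such group in 20 where the lines have reads. The Hoxa13 level of PdgfrbGFP in cluster 5 was 45.6 reads per 500000 endogenous reads, against 4.68 to 9.76 in the other lines. In 3 further groups the other 3 lines were at 0, so any line with a read stands apart, the chance rate does not apply, and nothing is read from them. These were the PdgfrbGFP levels of Hoxd8 (0.0761) and Hoxd11 (0.306) in cluster 5 and of Hoxd10 (0.0611) in cluster 10, which rest on 3, 6 and 2 reads.

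The Hoxa11 level differed between mural cells and fibroblasts in opposite directions in 2 lines, Cspg4dsRED and PdgfrbGFP. The share of thinned cells with a Hoxa11 read did not, as it was lower in cluster 10 in both lines. In Cspg4dsRED few of the mural cells had a Hoxa11 read, so the level there rests on few cells. Over the plates of Cspg4dsRED cluster 10 was higher than the fibroblast clusters by a mean of 11.4 reads per 500000, on each plate. That mean rests largely on the plate where 10 fibroblasts held 1 Hoxa11 read, and the other plate differed far less. Over the plates of PdgfrbGFP the mean difference was -13.4, with cluster 10 lower on each plate. It was largest on the plate with only 4 mural cells, and on another plate the levels were nearly equal. This difference between the lines was not tested.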

How the results depend on the processing

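edgeR called 0 members in each of the 11 comparisons. For cluster 10 other settings called 2 (DESeq2), 1 (limma-voom), 3 (sums per plate and line: Hoxd10, Hoxd11 and Hoxd13) and, with no replicate block, 1 member, all lower, and leaving out any line called 0. For cluster 5 they called 7 (DESeq2), 3 (limma-voom), 3 (sums per plate and line: Hoxa11, Hoxd9 and Hoxd13), 1 with no replicate block, and 1, Hoxa11, with at least 10 cells per line, which leaves out Cspg4dsRED. Leaving out each line in turn called 0 to 1. In the fits on sums per plate and line, the plates of a line count as separate replicates, though they may share animals. For the other clusters the settings run were median-of-ratios scaling, DESeq2, no replicate block and lines left out, and of these DESeq2 alone changed the count, to 1 in clusters 2, 6 and 8 and 2 in cluster 7. Leaving out a line could not be fitted for clusters 4 and 9, in which only 2 lines had the 3 cells needed. A filter by class, added after the data were seen, tested 13861 and 13988 genes and called 0 members in each main comparison. Of all genes tested, edgeR called 6.20% in cluster 10 and 0.762% in cluster 5, against 18.6% and 8.68% (DESeq2), 10.0% and 2.76% (limma-voom), 15.9% and 3.00% (sums per plate and line), 9.56% and 1.41% (no replicate block), 8.62% and 2.12% (thinned cells). Leaving out a line gave 2.88% to 5.79% and 0.559% to 1.31%. Of the called genes 35.1% and 39.02% were higher, and with the median gene at 0, 69.02% and 70.9%. The cause of these changes was not tested.

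Of the cofactor list in cluster 10, DESeq2 called 7, sums per plate and line 3, no filter 1 and thinned cells 1. In cluster 5 DESeq2, limma-voom and sums per plate and line called 1 each.

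Some log2 fold changes, -1.18 to 0.69 in the main analysis, turned sign. In cluster 10, Hoxa10 became 0.29 with no replicate block, 0.48 with the median gene at 0 and 0.49 with at least 10 cells per line, and leaving out lines gave -1.46 to 0.49. Hoxc11 became 0.22 with no block and 0.017 with limma-voom, Hoxa3 was -0.12 with sums per plate and line and -0.43 to 1.58 over lines left out, and Hoxa7 ranged from -0.62 to 1.33 over lines left out. In cluster 5, Hoxa9 became 0.61 with no block, 0.33 with the median gene at 0, 0.20 with limma-voom, 1.28 with sums per plate and line, 0.064 with thinned cells and 0.34 with at least 10 cells per line, and -2.45 to 0.97 over lines left out. Hoxa13 became 0.033, 0.17, 0.047 and 0.75 with no block, the median gene at 0, limma-voom and sums per plate and line. Hoxc10 became 1.79 with DESeq2, 0.73 with no block, 0.63 with limma-voom, 1.85 with sums per plate and line and -1.18 to 1.66 over lines left out. Setting the median gene to 0 moved all log2 fold changes by about 0.93 and 0.77.

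Without members that overlap other genes, the summed level per length in fibroblasts was 27.04 for HoxA and 5.93 for HoxD. C57BL6 in cluster 10 and Cspg4dsRED in cluster 5 rest on 3 cells each, and few HoxB and anterior reads leave differences there undetectable at this depth.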
